A study of Mus musculus with 8 samples.

Results

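The transcriptional response to CpG was followed for 8 h in dendritic cells whose genotype leaves the type I interferon receptor intact. CpG is an unmethylated DNA oligonucleotide that mimics bacterial DNA. The course consisted of 4 libraries of the RelB-DBDB genotype, chosen by their labels out of 8 libraries in all: control cells labelled 1 h and cells given 0.1 µM CpG for 1, 3 or 8 h. Marrow of C57BL/6 mice was the source, cultured with the growth factor GM-CSF at 20 ng/ml together with IL-4, a cytokine of type 2 immunity, at 10 ng/ml. The other 4 libraries were the same conditions in IFNAR;RelB-DBDB cells, which per the series description lack the interferon receptor IFNAR. All 8 libraries carry the RelB-DBDB allele, named for the NF-κB subunit RelB, so none shows the response of cells with unaltered RelB, and the labels do not spell out what DB changes. Each condition had 1 library per genotype, so that a change between a pair of libraries is a value without a test. The only unstimulated library of each genotype was labelled 1 h, so longer culture and CpG cannot be told apart at 3 and 8 h.

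CpG is taken up into endosomes and recognised there by the receptor TLR9, which signals through the adaptor MyD88. One arm of this pathway releases NF-κB dimers, which bind κB sites beside genes of cytokines, chemokines and their own inhibitors. Another arm activates interferon regulatory factors and leads to secretion of type I interferon. Interferon binds IFNAR on the same and on neighbouring cells, and the kinases JAK1 and TYK2 then phosphorylate transcription factors of the STAT family. STAT2 joins IRF9 in a complex that binds the interferon-stimulated response element (ISRE) beside antiviral genes.

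Read totals were 10514734 in the RelB-DBDB control, 6159951 at 1 h, 8773352 at 3 h and 37221530 at 8 h, and 3711818 to 11977778 in IFNAR;RelB-DBDB. Levels are in CPM (reads relative to the total of a library), and courses are given in the order control, 1, 3 and 8 h. A log2 change is that of CPM + 1, and a gene was called higher or lower at a change of at least 2-fold on that scale, among 12297 genes that reached 1 CPM in 2 or more of the 8 libraries. Intervals of ratios cover counting error only. The 8 h RelB-DBDB library stood apart, with 6.26% mitochondrial reads, against 1.74% to 2.16% in the other RelB-DBDB libraries. The median of all genes lay at -0.02 at 1 h, -0.15 at 3 h and -0.36 at 8 h, and median-ratio scaling, which removes that shift, is given where it matters. Of the 10 tested markers of cultured dendritic cells, Cd74 stood at 6986, 7388, 6300.4 and 4194 CPM and Itgax at 1319, 1374, 1109.7 and 645 CPM, while Cd209a was at or near 0 in all 4 libraries. Of the 10, 1 was 2-fold higher and 2 were 2-fold lower at 8 h, with a median log2 change of -0.18. With median-ratio scaling 2 were higher and 0 lower, with a median of 0.03. T and NK cell markers summed to 61.0 to 104 CPM in RelB-DBDB and to 295 to 392 CPM in IFNAR;RelB-DBDB. The libraries are of bulk cells, where fewer cells of a type and less RNA per cell cannot be told apart.

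Within 1 h the genes that stood highest over control were the cytokine gene Tnf, the NF-κB regulator gene Nfkbiz, the cytokine-signal inhibitor gene Socs3, the transcription factor gene Egr1 and the neutrophil chemokine gene Cxcl2. Tnf had 298 CPM at 1 h of CpG and 8.08 CPM in control cells, a ratio of 36.9-fold (exact 95% interval 29.7 to 46.4). It was not far above that later, with 411 CPM (3 h) and 326 CPM (8 h). Socs3 stood at 7.23, 103, 156 and 99.7 CPM and Nfkbiz at 6.66, 111, 304 and 268 CPM, so that Nfkbiz had less than its later level at 1 h. In all, 36 of 12297 genes (0.293%) were at least 2-fold higher at 1 h, and 16 (0.13%) were at least 2-fold lower.

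Among 25 immediate-early genes, which are transcribed without prior protein synthesis and encode mostly transcription factors, 6 were at least 2-fold higher at 1 h, beside the 0.293% of all genes. Among their CpG samples, 17 had the highest CPM at 1 h. That was not particular to this list, as 19 of 22 IL-4-responsive and 16 of 20 cell cycle genes did too, against 2 of 27 inflammatory genes. The share over all genes was not computed. Egr1 stood at 9.13, 108, 6.38 and 6.45 CPM. Ier2 stood at 27.6, 80.8, 14.9 and 8.11 CPM and Nr4a1, an orphan nuclear receptor gene, at 3.71, 14.8, 4.90 and 2.82 CPM. For these 3 the 1 h sample was high and the 3 and 8 h samples were below control or close to it. Ier3, which limits cell death, stood at 19.8, 76.0, 55.2 and 31.2 CPM and the phosphatase gene Dusp1 at 71.2, 150.2, 72.5 and 107 CPM. Both were still above control at 8 h, by less than 2-fold, though Ier3 was past 2-fold with median-ratio scaling (log2 change 1.03). Fos, a subunit of AP-1, stood at 12.5, 20.9, 5.24 and 4.22 CPM and ended 2-fold below control, though not with a pseudocount of 5 CPM.

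Of 24 genes for NF-κB subunits and their feedback regulators, 4 were at least 2-fold higher at 1 h (0.293% of all genes) and 12 at 3 h (4.26%). The early 4 were Nfkbiz, Nfkbid, Nfkbia and Tnfaip3, which encode proteins that regulate NF-κB, and Nfkbid was not past 2-fold at 1 h with a pseudocount of 5 CPM. Nfkbia, the gene of the inhibitor IκBα, stood at 336, 823, 997 and 745 CPM. Tnfaip3, whose product is a deubiquitinase that shuts off NF-κB signalling, stood at 147, 445, 634 and 389.9 CPM. Both were highest at 3 h. The subunit genes Rela (170.0, 172, 166 and 166 CPM) and Rel (357, 398, 321 and 391 CPM) stayed within 2-fold of control throughout. Relb, the gene that carries the DB allele, stood at 115, 102, 197 and 92.5 CPM and was highest at 3 h by less than 2-fold. At 1 h 0 of 52 antiviral interferon-stimulated genes and 0 of 15 interferon-inducible GTPase genes were 2-fold higher, beside 0.293% of all genes, a share at which lists of this size hold few or no genes.

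**Figure D1:**
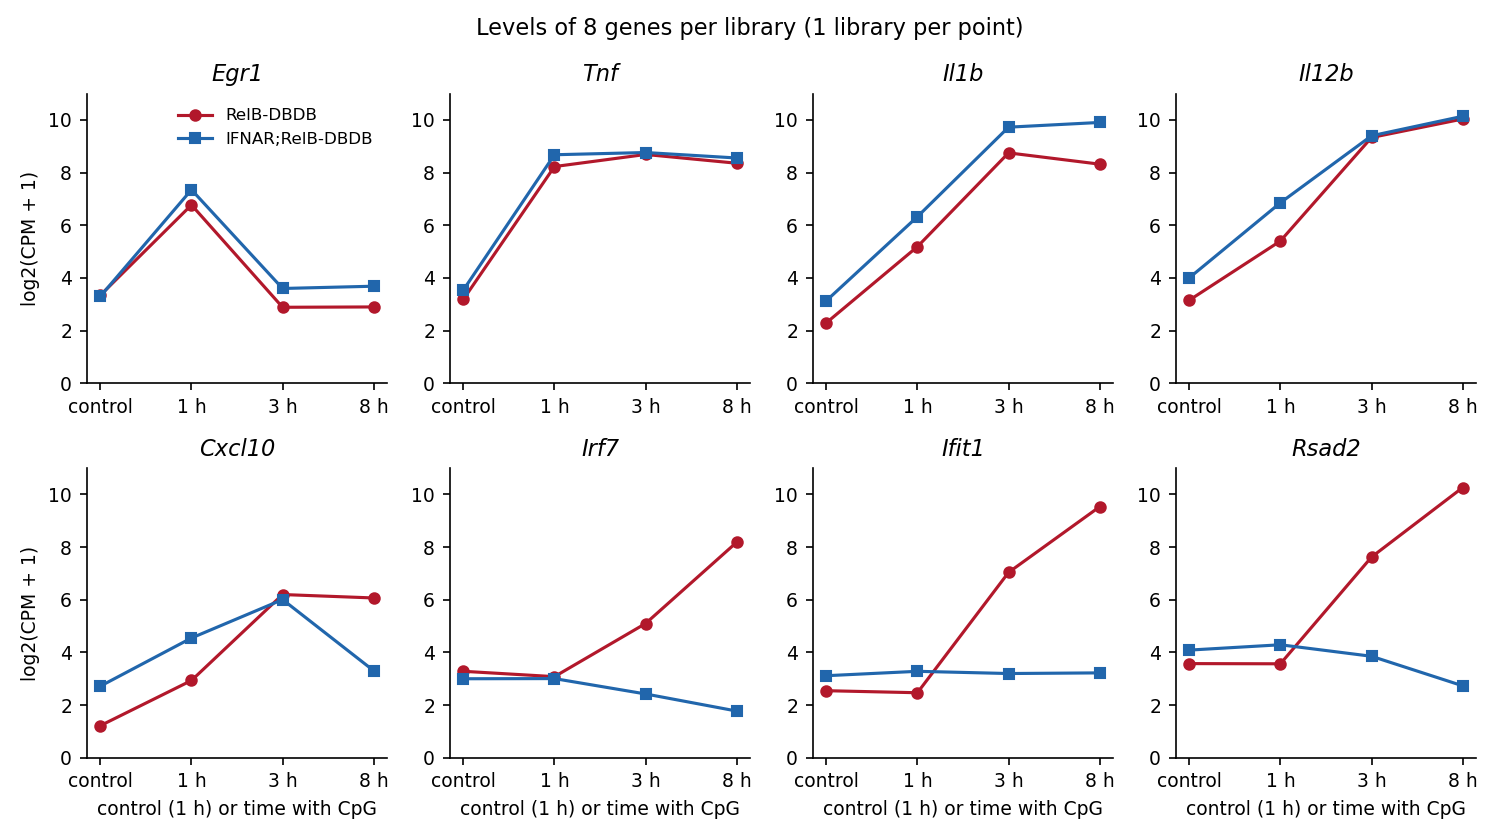
Each panel plots log2(CPM + 1) of 1 gene (y axis) in control cells and after 1, 3 and 8 h of CpG (x axis), with 1 library per point, RelB-DBDB as red circles and IFNAR;RelB-DBDB as blue squares. Egr1 peaks at 1 h and Tnf is high from 1 h on in both genotypes, while Irf7, Ifit1 and Rsad2 stand high at 3 and 8 h in RelB-DBDB and near or below their control level in IFNAR;RelB-DBDB.

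Most inflammatory genes were 2-fold higher by 3 h. Of 27 inflammatory cytokine and enzyme genes, 8 were at least 2-fold higher at 1 h, 18 at 3 h and 19 at 8 h, beside 0.293%, 4.26% and 6.9% of all genes at these times. Their median log2 change was 0.26, 2.14 and 2.45. With median-ratio scaling 20 were 2-fold higher at 3 h and 23 at 8 h, with medians of 2.20 and 2.86. The filter on low values let 1 of the 27 in through the 3 and 8 h libraries only. The median of 2.14 at 3 h is the value of Csf3, whose log2 change was 0.75 with a pseudocount of 5 CPM. Il1b, which encodes the fever-inducing cytokine IL-1β, stood at 3.90, 35.4, 428 and 318 CPM. Ptgs2, the inducible cyclooxygenase gene, stood at 0.856, 3.25, 163 and 173 CPM. Both were low in control cells and close to their highest value at 3 h. Il12b, which encodes the chain shared by IL-12 and IL-23, stood at 7.89, 41.2, 643 and 1045 CPM, and Il6 at 9.42, 50.0, 307 and 392 CPM. These 2 were highest at 8 h. Il23a, the gene of the chain specific to IL-23, was listed at 0 in control cells, then stood at 4.55, 11.6 and 1.69 CPM, and was the 1 member of the list that was 2-fold lower at 8 h than at 3 h, as 8.14% of all genes were.

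Another 5 members were at least 2-fold higher at 8 h than at 3 h. Marco, which encodes a scavenger receptor of phagocytes, stood at 0.190, 0.325, 23.5 and 392 CPM and had the largest log2 change of any gene with a mean of at least 5 CPM at 8 h (8.37). With 2 reads in the control library its ratio is loosely bounded, at 2063-fold (exact 95% interval 571 to 17040.2). Saa3, an acute-phase gene, stood at 1.14, 0.487, 30.5 and 96.5 CPM, and Lcn2, whose product withholds iron from bacteria, at 33.7, 33.0, 68.3 and 268 CPM. Il1rn, which encodes the antagonist of the IL-1 receptor, stood at 43.3, 52.1, 224 and 641 CPM. All 4 were higher at 8 h than in each of the other samples. The enzyme genes Nos2, for inducible nitric oxide synthase, and Irg1, for the enzyme that makes itaconate, were highest at 8 h as well, at 1249 and 2629.7 CPM, against 228 and 81.8 CPM in control cells.

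Neutrophil-attracting chemokine genes had the largest changes among 17 tested chemokines. Cxcl1 stood at 0.285, 6.82, 60.8 and 91.3 CPM. Cxcl2 stood at 6.85, 68.2, 466 and 352 CPM. Cxcl5 stood at 0.0951, 0.974, 41.0 and 305 CPM. Cxcl2 was highest at 3 h and the other 2 at 8 h, and short reads may be shared between close copies of this family such as Cxcl2 and Cxcl3. Ccl3, a chemokine gene for monocytes and T cells, stood at 20.3, 44.2, 509 and 569 CPM, and Ccl4 at 7.23, 16.2, 134 and 76.5 CPM. Ccl22 was already at 9665 CPM in control cells and stood at 25273 CPM at 8 h. Ccl17, whose product binds the same receptor on T cells, went the opposite way, at 1843, 1774, 1517 and 808 CPM. Of the 17 chemokines 5 were at least 2-fold higher at 1 h, 9 at 3 h and 13 at 8 h, beside 0.293%, 4.26% and 6.9% of all genes. With a pseudocount of 5 CPM Ccl3 and Ccl4 were not past 2-fold at 1 h. Ccl17 alone was 2-fold lower at 8 h. With median-ratio scaling Ccl17 was lower by less than that (log2 change -0.78).

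By list median, the antiviral interferon-stimulated genes had the larger part of their log2 change between 3 and 8 h (2.24, against 1.43 by 3 h). Single genes differed, and the larger part came by 3 h in many of those named below. These include Ifit1, Ifit2, Rsad2, Cmpk2, Isg15, Usp18, Mx1, Mx2 and Oas1b. Of 52 tested antiviral genes 0 were 2-fold higher at 1 h (0.293% of all genes), 34 were at 3 h (4.26%) and 51 at 8 h (6.9%), with Trim25 the exception. The list's median log2 change was -0.01, 1.43 and 3.68, and with median-ratio scaling it was 4.08 at 8 h. From 3 to 8 h 46 of the 52 were at least 2-fold higher, beside 3.51% of all genes, while 5 of 27 inflammatory genes and 3 of 17 chemokines were. The highest CPM was at 8 h in 49 of 52, and Oas1b, Slfn2 and Trim25 were the others. Among CpG samples, 19 of 27 inflammatory genes and 10 of 17 chemokines were also highest at 8 h. The filter on low values let Ifit3 and Ifi44 in through the 3 and 8 h libraries only.

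**Figure D2:**
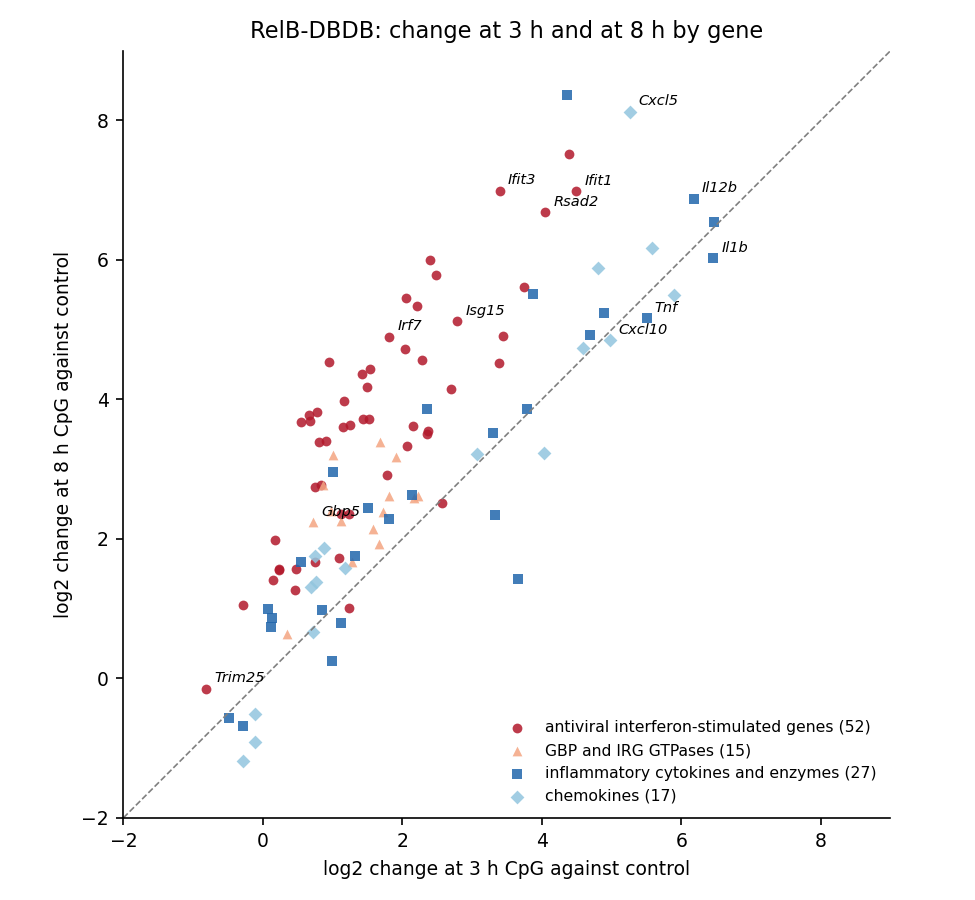
Each point is 1 gene, with its log2 change of CPM + 1 at 3 h of CpG (x axis) and at 8 h (y axis) against the RelB-DBDB control, coloured by gene list, and the dashed line marks equal change. Both axes share the control library. Of the antiviral genes 46 of 52 lie more than 1 unit above the line, and genes such as Tnf, Il1b and Cxcl10 lie on or just below it.

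Genes of the Ifit family, whose proteins bind foreign RNA, had the largest changes of the antiviral list. Ifit1 (mm10 chromosome 19, 34640871 to 34650009) stood at 4.85, 4.55, 131 and 739.9 CPM. Ifit2 stood at 5.14, 5.03, 128 and 1129 CPM and Ifit3 at 0.285, 0.325, 12.5 and 163 CPM. The ratio of Ifit1 at 8 h to control was 153-fold (exact 95% interval 116 to 205). Rsad2, which encodes viperin, an enzyme that makes a chain-terminating nucleotide, stood at 10.9, 10.9, 196 and 1226 CPM. Its neighbour Cmpk2, a mitochondrial nucleotide kinase gene, stood at 5.14, 4.55, 81.0 and 300.1 CPM. For these 5 genes control cells and the 1 h sample were alike, the 3 h sample was intermediate and the 8 h sample was highest. Isg15, which encodes a ubiquitin-like modifier, stood at 10.5, 8.93, 78.3 and 397 CPM. Usp18, the gene of the protease that removes this modifier and dampens receptor signalling, stood at 6.56, 7.14, 81.6 and 225 CPM.

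The antiviral list includes genes of sensors of nucleic acid. Ddx58, which encodes the RNA sensor RIG-I, stood at 16.2, 17.7, 48.7 and 371 CPM. Zbp1, which encodes a sensor of Z-form nucleic acid, stood at 32.0, 39.0, 56.8 and 345 CPM. Ifi204, of a family that senses DNA, stood at 42.7, 43.2, 117 and 901 CPM. In each the 8 h sample was several-fold above the 3 h sample. Genes of the oligoadenylate synthetase family differed among themselves. Oas3 stood at 29.1, 26.6, 66.2 and 474 CPM and was highest at 8 h, whereas Oas1b stood at 2.76, 3.08, 21.3 and 20.4 CPM and had its full change by 3 h. Of the genes of the Mx GTPase family, Mx2 stood at 2.19, 2.11, 32.4 and 72.2 CPM and Mx1 at 144, 120.5, 340.2 and 741 CPM. Trim25, a ubiquitin ligase gene that acts on RIG-I, stood at 526, 543, 298 and 474 CPM and was lowest at 3 h. Reads of the Oas1, Ifi204 and Slfn families may be shared between near-identical copies, so single members are uncertain.

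Part of the machinery of interferon signalling took the same late course. Irf7, which amplifies type I interferon production and is counted in the antiviral list too, stood at 8.75, 7.47, 33.3 and 290.0 CPM, a ratio of 33.1-fold (exact 95% interval 27.0 to 41.2) at 8 h to control. Stat2 stood at 139, 114, 349 and 878 CPM and was 2-fold higher from 3 h. Irf9, whose product pairs with STAT2, stood at 96.4, 87.5, 142 and 161 CPM, a log2 change of 0.74 at 8 h, which is past 2-fold with median-ratio scaling (1.15). The receptor genes Ifnar1 (127, 123, 102 and 125 CPM) and Ifnar2 (43.1, 35.4, 38.0 and 40.6 CPM) stayed within 2-fold. So did the kinase genes Jak1 (341, 339, 357 and 373 CPM) and Tyk2 (167, 157, 189.6 and 204 CPM). Ifngr1, a chain of the receptor for interferon γ, stood at 83.5, 85.1, 36.4 and 27.3 CPM and was 2-fold lower at 3 and 8 h. Of 16 genes of receptors and transducers, 1 was 2-fold higher at 1 h (Socs3), 4 at 3 h and 7 at 8 h, beside 0.293%, 4.26% and 6.9% of all genes.

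The interferon genes themselves were near the limit of detection. Ifnb1, which encodes interferon β, had 0 reads in control cells and at 1 h, 0.912 CPM at 3 h (8 reads) and 1.34 CPM at 8 h (50 reads). A count of 0 allows up to 0.285 CPM in the control library and 0.487 CPM at 1 h. Of 21 interferon genes listed, 10 had a row in the table, 2 were tested and 6 had 0 reads in every RelB-DBDB library. On the route from TLR9 to interferon, 0 of 21 genes were 2-fold higher at 1 h, 5 at 3 h and 3 at 8 h, beside 0.293%, 4.26% and 6.9% of all genes. With median-ratio scaling 8 were at 8 h, beside 12.5% of all genes. Tlr9 itself stood at 67.6, 59.4, 45.3 and 81.0 CPM, with its lowest value at 3 h, and Myd88 at 58.0, 64.8, 113 and 89.5 CPM. Ikbke, a kinase gene of this route, stood at 53.4, 48.2, 360.3 and 264 CPM. Irak3, which encodes a brake on the receptor, stood at 19.5, 19.2, 35.7 and 126 CPM and was 2-fold higher at 8 h alone. Irf1 (134, 176, 279 and 201 CPM) and Irf4 (262, 334, 724 and 450.4 CPM) were 2-fold higher at 3 h and not at 8 h, though Irf4 was at 8 h as well with median-ratio scaling (log2 change 1.19).

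Interferon-inducible GTPases of the GBP and IRG families, which attack the vacuoles of intracellular pathogens, were higher at 3 and 8 h and not at 1 h. Their median log2 change was 1.58 at 3 h and 2.40 at 8 h. From 3 to 8 h it was 0.80, and 7 of 15 were at least 2-fold higher, beside 3.51% of all genes. Of 15 tested, 0 were 2-fold higher at 1 h, 11 at 3 h and 14 at 8 h, beside 0.293%, 4.26% and 6.9% of all genes, and all 15 were highest at 8 h. Gbp2 stood at 267, 284, 487 and 1831 CPM. Iigp1 stood at 18.5, 11.5, 71.8 and 175 CPM and Irgm1 at 78.9, 72.6, 263 and 417 CPM. Members of these families are close copies and may share short reads. In the IFNAR;RelB-DBDB course Gbp2 stood at 1151, 1211, 1663 and 1851 CPM, Iigp1 at 118, 118, 151 and 47.1 CPM and Irgm1 at 255, 261, 259 and 162 CPM. These control values were above those of RelB-DBDB, and at 8 h Gbp2 was alike in both genotypes. In control cells all 15 genes were lower in RelB-DBDB than in IFNAR;RelB-DBDB, with a median log2 difference of -1.75. The 10 T and NK cell markers were also lower in the RelB-DBDB control (median log2 difference -1.81), as was Ifng, the interferon γ gene, with a course of 3.04, 2.27, 0.912 and 0.940 CPM in RelB-DBDB cells, against 7.68, 9.42, 9.65 and 11.3 CPM in IFNAR;RelB-DBDB cells. The part of these cells in the GTPase result was not tested.

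MHC class I genes, another target of interferon, were within 2-fold of control at 8 h in 16 of 17 cases. Nlrc5, the activator of class I genes, stood at 104, 99.5, 169.8 and 323 CPM and was the exception. B2m, the invariant light chain gene, stood at 2737, 2812, 2817 and 4843 CPM, and the heavy chain gene H2-K1 at 2602, 2489, 2436 and 2025 CPM. With median-ratio scaling 5 of the 17 were 2-fold higher, beside 12.5% of all genes, with a log2 change of 0.05 for H2-K1 and 1.23 for B2m.

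**Figure D3:**
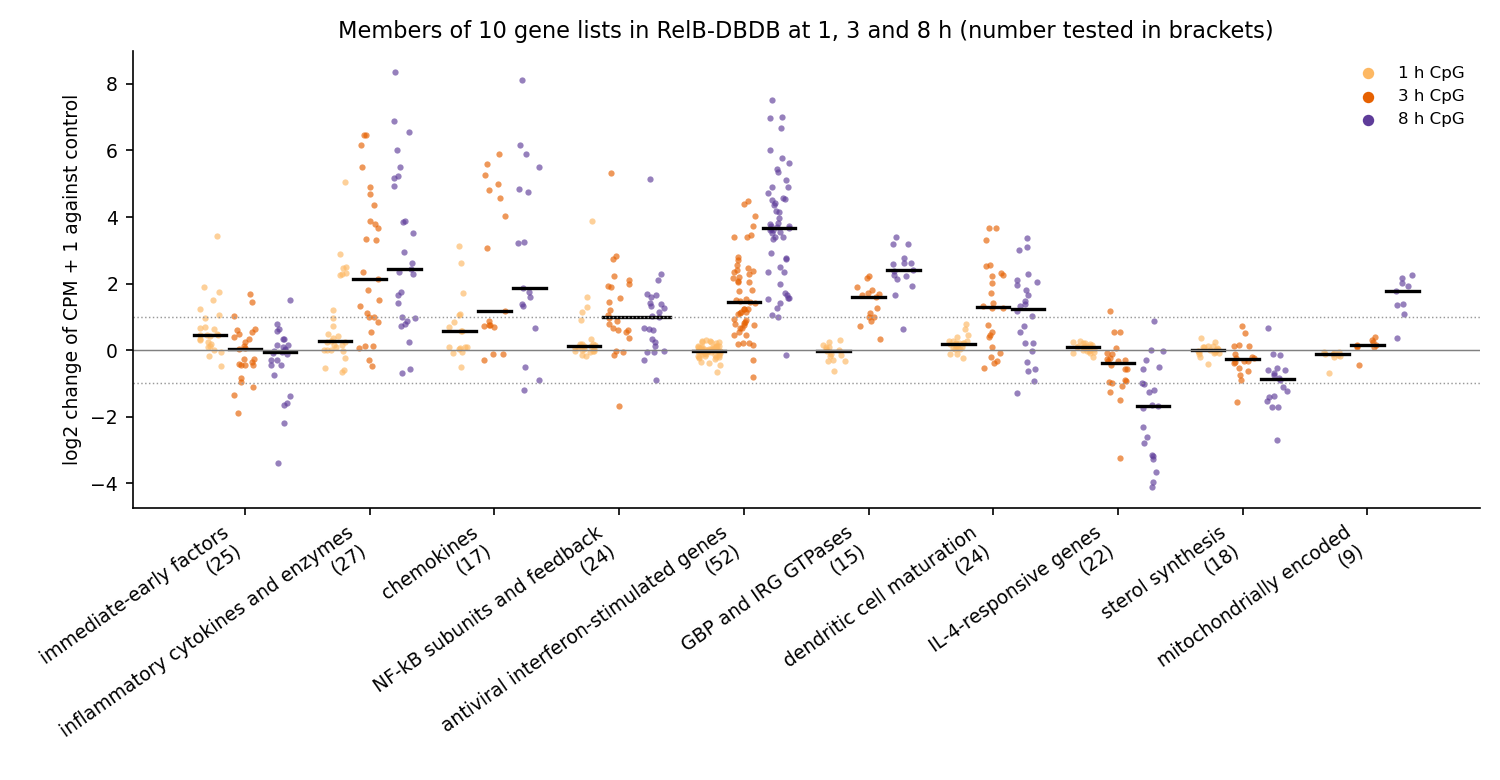
Each point is 1 tested gene of a list, with its log2 change of CPM + 1 against the RelB-DBDB control (y axis) at 1, 3 and 8 h of CpG (colours, left to right within a list), black bars mark list medians and dotted lines mark a 2-fold change. Antiviral genes have medians of -0.01, 1.43 and 3.68 at 1, 3 and 8 h, inflammatory genes 0.26, 2.14 and 2.45, and IL-4-responsive genes reach -1.67 at 8 h.

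Grouped by the first time at which they were 2-fold higher, 36 genes belonged to 1 h, 499 to 3 h and 468 to 8 h. Of the 36 early genes 22 were still 2-fold higher at 8 h, and of the 499 genes of 3 h 358 were. The antiviral list put 34 genes in the 3 h group and 17 in the 8 h group. The 3 h group held, at its highest CPM, Hmox1, the gene of a haem-degrading enzyme, which stood at 1955, 1724, 5841 and 1897 CPM and was high in that sample alone. Next came Sqstm1, an autophagy receptor gene (1326, 1236, 3183 and 1926 CPM), which was also highest at 3 h. The 8 h group held Fth1, which encodes the heavy chain of the iron store ferritin (2996, 2644, 4946 and 10941 CPM), Ccl22 and mitochondrially encoded genes, of which 8 of 9 tested were 2-fold higher in that library, beside 6.9% of all genes. The 1 h group held Clec4e, a receptor gene for mycobacterial and damage-derived lipids (36.6, 75.3, 626 and 781 CPM), which was not past 2-fold at 1 h with a pseudocount of 5 CPM and was higher again at 3 and 8 h.

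Promoters of early and late genes were searched for a motif of each pathway, and 7 are shown as examples. The stretches are 100 bases each, 5′ to 3′ on the gene's strand, from RefSeq on GRCm38.p6, with matches in capitals. The motifs were searched on both strands of the 300-base promoter (250 bases before to 50 after the start) as GAAANNGAAA for the ISRE core and GGGNNTTTCC for the NF-κB core. The first pair, an early chemokine gene and the IκBα gene, hold NF-κB cores (Cxcl2, chr5:90903782-90903881, plus strand, with Nfkbia, chr12:55492648-55492747, minus strand). The next is Cxcl10, which was 2-fold higher from 1 h on (at 1 h not with a pseudocount of 5 CPM) and holds an ISRE core (chr5:92349023-92349122, minus strand). The last 4 are genes of the interferon wave with ISRE cores (Isg15, chr4:156200819-156200918, minus strand, Ifit1, chr19:34640765-34640864, plus strand, Ifit3, chr19:34583353-34583452, plus strand, and Rsad2, chr12:26456493-26456592, minus strand).
Cxcl2: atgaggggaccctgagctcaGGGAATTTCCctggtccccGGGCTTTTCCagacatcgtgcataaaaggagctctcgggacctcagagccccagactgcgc
Nfkbia: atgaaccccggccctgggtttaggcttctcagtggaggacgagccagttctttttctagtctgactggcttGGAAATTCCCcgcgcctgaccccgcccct
Cxcl10: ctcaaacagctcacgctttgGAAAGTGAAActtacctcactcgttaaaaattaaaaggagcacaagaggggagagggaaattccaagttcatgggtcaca
Isg15: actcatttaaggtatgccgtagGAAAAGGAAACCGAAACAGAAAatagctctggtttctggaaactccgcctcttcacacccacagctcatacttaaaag
Ifit1: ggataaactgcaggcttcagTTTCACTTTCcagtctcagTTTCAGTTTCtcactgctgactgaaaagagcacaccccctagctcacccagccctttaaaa
Ifit3: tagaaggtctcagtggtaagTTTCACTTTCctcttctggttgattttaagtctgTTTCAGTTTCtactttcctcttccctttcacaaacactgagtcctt
Rsad2: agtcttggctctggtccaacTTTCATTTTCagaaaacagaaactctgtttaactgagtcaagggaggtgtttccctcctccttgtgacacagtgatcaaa

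In Isg15 3 ISRE cores overlap between bases -78 and -57 from the start. Ifit1 holds 2, starting at -104 and -85, and Ifit3 holds 2, starting at -156 and -122, all of them as the reverse complement TTTCNNTTTC. In Rsad2 1 core starts at -120 and in Cxcl10 at -213. In Cxcl2 the NF-κB cores start at -97 and -78, and in Nfkbia 1 starts at -29. Cxcl2 and Ifit3 were added after their sequences had been seen. The promoters of Tnf, Il1b and Irf7 hold neither set of letters in this window.

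Over the groups by first time, the ISRE core was found in 4.17% of promoters of the 1 h group (1 of 24), 11.7% of the 3 h group (42 of 359) and 9.09% of the 8 h group (31 of 341), and in 3.18% of all tested genes with a promoter (291 of 9147). The NF-κB core was found in 20.8% of the 1 h group (5 of 24), 2.23% of the 3 h group and 2.64% of the 8 h group, and in 1.76% of all. By list, 51.3% of antiviral promoters (20 of 39) and 90.0% of GTPase promoters (9 of 10) held the ISRE core. The NF-κB core was held by 40.0% of chemokine promoters (4 of 10), 30.0% of those of NF-κB regulators (6 of 20) and 0 of 39 antiviral promoters. Family members can share promoter sequence through duplication, so they are not independent, and a match of letters is not a bound site. Each core is a fixed pattern, so a site with other letters was not counted, and a promoter without a match may still hold one.

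**Figure D4:**
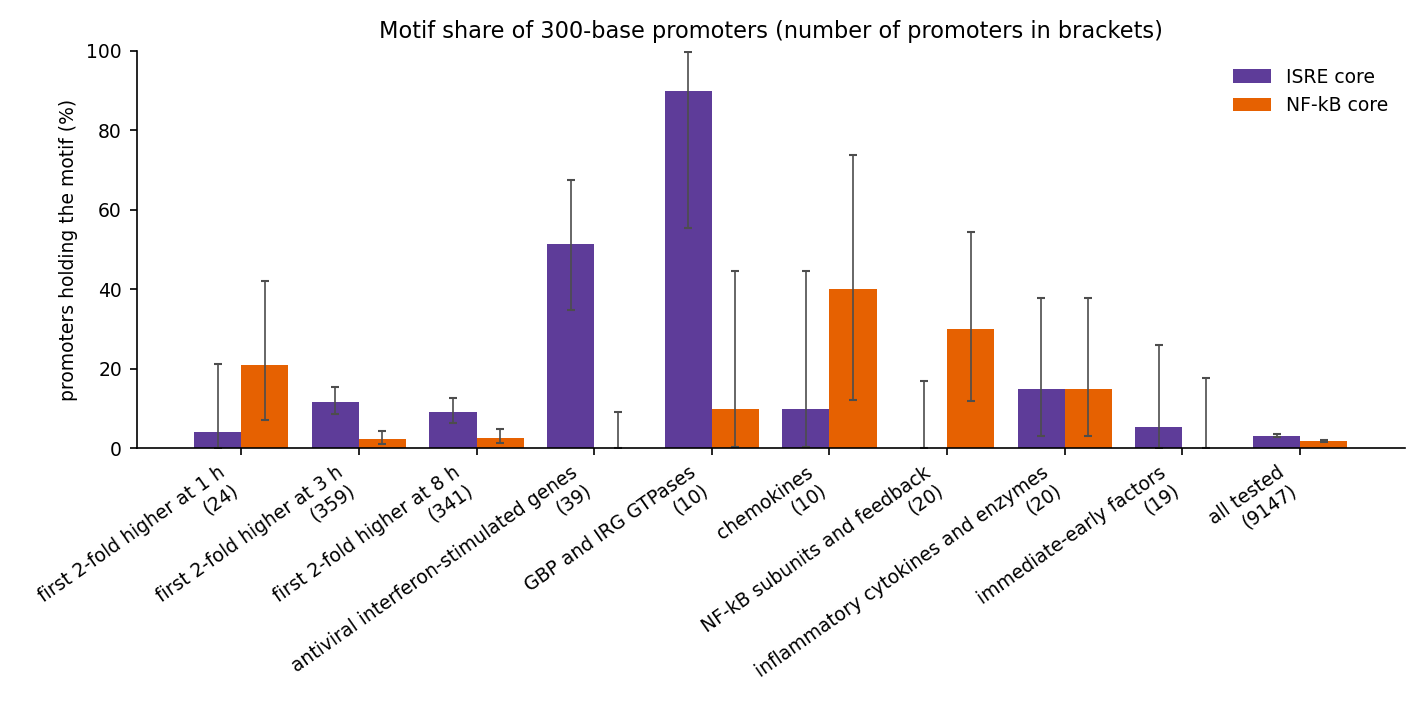
Bars give the percentage of 300-base promoters that hold the ISRE core (purple) or the NF-κB core (orange), by group of first 2-fold increase in RelB-DBDB and by gene list, with exact 95% binomial intervals and the number of promoters in brackets. The ISRE core stands highest in GTPase (90.0%) and antiviral (51.3%) promoters and the NF-κB core in chemokine promoters (40.0%), against 3.18% and 1.76% of all tested genes.

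Maturation genes, by which a dendritic cell becomes able to prime T cells, were mostly higher from 3 h. Of 24, 14 were 2-fold higher at 3 h and 14 at 8 h, beside 4.26% and 6.9% of all genes, with medians of 1.30 and 1.24. Among their CpG samples, 12 were highest at 3 h. The costimulatory gene Cd40 stood at 47.0, 55.0, 472 and 386 CPM, and Cd80 at 48.5, 55.8, 245 and 205 CPM. Cd70, a costimulatory ligand gene, stood at 0.571, 1.46, 18.8 and 3.95 CPM and was highest at 3 h. Ccr7, the gene of the receptor for homing to lymph nodes, was already at 963 CPM in control cells and stayed within 2-fold. Il15, a cytokine gene for T and NK cells, stood at 8.65, 9.90, 22.1 and 46.3 CPM, and Cd274, which encodes an inhibitory ligand of T cells, at 238, 328, 789 and 1039 CPM. These 2 were highest at 8 h.

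Most IL-4-responsive genes were 2-fold lower at 8 h. Of 22 IL-4-responsive genes, 4 were 2-fold lower at 3 h and 15 at 8 h, beside 4.91% and 19.6% of all genes, with medians of -0.39 and -1.67. With median-ratio scaling 12 were lower at 8 h, beside 10.2% of all genes, with a median of -1.26. Klf4, a transcription factor gene, stood at 82.8, 88.8, 7.86 and 7.74 CPM and was low from 3 h. Clec10a, a lectin receptor gene, stood at 93.4, 93.8, 47.6 and 5.05 CPM, and Mrc1, the mannose receptor gene, at 96.7, 106, 48.3 and 13.1 CPM. Aqp3, a water and glycerol channel gene, stood at 25.8, 29.9, 8.55 and 0.537 CPM. In these 3 the 3 h sample was intermediate and the 8 h sample lowest. Of 13 MHC class II genes 6 were 2-fold lower at 8 h, beside the 19.6% of all genes, with a median of -0.79. With median-ratio scaling 2 were lower, beside the 10.2%, and 1 was higher, with a median of -0.40. H2-Aa, a class II chain gene, stood at 2269, 2213, 1929 and 961 CPM. Over all genes at 8 h, 848 were 2-fold higher and 2410 lower, and with median-ratio scaling 1538 were higher and 1252 lower. At 3 h these counts were 524 and 604, and with median-ratio scaling 654 and 420.

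The CpG change averaged over both genotypes could be tested, with limma on all 8 libraries. The model was genotype plus condition, with Benjamini-Hochberg adjustment over 12297 genes. A gene that changed mainly in 1 genotype can be called by it too. The labels do not say that the libraries came from separate mice or cultures, so p-values measure only the spread between these libraries. At 1 h 8 genes (0.0651%) rose and 0 fell, at 3 h 448 (3.64%) rose and 476 (3.87%) fell, and at 8 h 801 (6.51%) rose and 1853 (15.1%) fell. With median-ratio scaling 591 rose and 371 fell at 3 h, and 1227 rose and 1107 fell at 8 h. Tnf rose at all 3 times (at 8 h log2 5.09, adjusted p = 2.5e-05), as did Il1b (log2 6.40, adjusted p = 2.5e-05), Cxcl2 (log2 5.82, adjusted p = 8.9e-05) and Nfkbiz (log2 5.12, adjusted p = 0.00014). Marco (log2 8.16, adjusted p = 2.5e-05) and Il12b (log2 6.51, adjusted p = 0.00014) rose at 8 h. Cd40 rose at 3 h (log2 3.13, adjusted p = 0.00041) and at 8 h. Klf4 (log2 -3.26, adjusted p = 0.00018) and Clec10a (log2 -3.78, adjusted p = 0.00013) fell at 8 h. Each of these calls held in all 8 fits with 1 library left out.

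By the same test at 8 h, 21 of 27 inflammatory genes rose and 1 fell, 13 of 17 chemokines rose and 1 fell, and 15 of 24 maturation genes rose and 1 fell. Of 24 NF-κB genes 15 rose, and of 22 IL-4-responsive genes 14 fell and 1 rose, beside the 6.51% of all genes that rose and the 15.1% that fell. Of 52 antiviral genes 4 rose (Isg15, Ifi205, Slfn2 and Slfn5), and of 15 GTPase genes 2 (Gbp2 and Gbp3), beside 6.51% of all genes. The test is of the mean change of both genotypes, and a gap between their changes counts as spread. Each of these 6 calls was lost on leaving out either control library. With 1 library left out Isg15 was called in 3 of 8 fits (log2 change 1.58 to 4.83), as was Ifi205 (1.52 to 5.27), Slfn5 in 4 (1.31 to 4.61), Slfn2 in 6 (0.71 to 0.99), Gbp2 in 2 (0.74 to 2.71) and Gbp3 in 2 (0.90 to 3.13). The count of genes called at 8 h, 2654, became 336 when the RelB-DBDB control was left out and 622 when the IFNAR;RelB-DBDB control was. It became 1646 on leaving out the 1 h library of either genotype, 1293 for the RelB-DBDB 3 h library, 1287 for the IFNAR;RelB-DBDB 3 h library, and 7056 for the 8 h library of IFNAR;RelB-DBDB. The count of 8 at 1 h became 5 on leaving out the IFNAR;RelB-DBDB 1 h library, 35 for the RelB-DBDB 8 h library and 34 for the IFNAR;RelB-DBDB one. At 3 h the count of 924 became 12 on leaving out RelB-DBDB at 3 h and 48 for IFNAR;RelB-DBDB at 3 h. It became 90 for the RelB-DBDB control, 125 for the other control, 507 and 503 for the 1 h libraries of RelB-DBDB and IFNAR;RelB-DBDB, and 4313 and 4295 for their 8 h libraries.

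Set against IFNAR;RelB-DBDB cells, the early genes were high in both genotypes and the late antiviral genes in RelB-DBDB. Of the 36 genes that were 2-fold higher at 1 h in RelB-DBDB, 30 were also 2-fold higher at 1 h in IFNAR;RelB-DBDB, where 0.529% of all genes were. Of the 499 genes of the 3 h group, 259 were 2-fold higher at 3 h in IFNAR;RelB-DBDB (2.86% of all genes), and of the 468 genes of the 8 h group, 129 were at 8 h (4.24%). At 8 h inflammatory genes had a median log2 change of 2.45 in RelB-DBDB and 2.19 in IFNAR;RelB-DBDB. Chemokines had 1.87 in RelB-DBDB and 1.99 in IFNAR;RelB-DBDB, and maturation genes 1.24 in RelB-DBDB and 1.12 in IFNAR;RelB-DBDB. The 52 antiviral genes had medians of 3.68 in RelB-DBDB and 0.06 in IFNAR;RelB-DBDB, where 3 were 2-fold higher and 7 were 2-fold lower (4.24% and 6.23% of all genes). For all 52 the log2 change at 8 h was higher in RelB-DBDB. GTPase genes had medians of 2.40 in RelB-DBDB and -0.01 in IFNAR;RelB-DBDB, from control levels that were lower in RelB-DBDB for all of them.

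**Figure D5:**
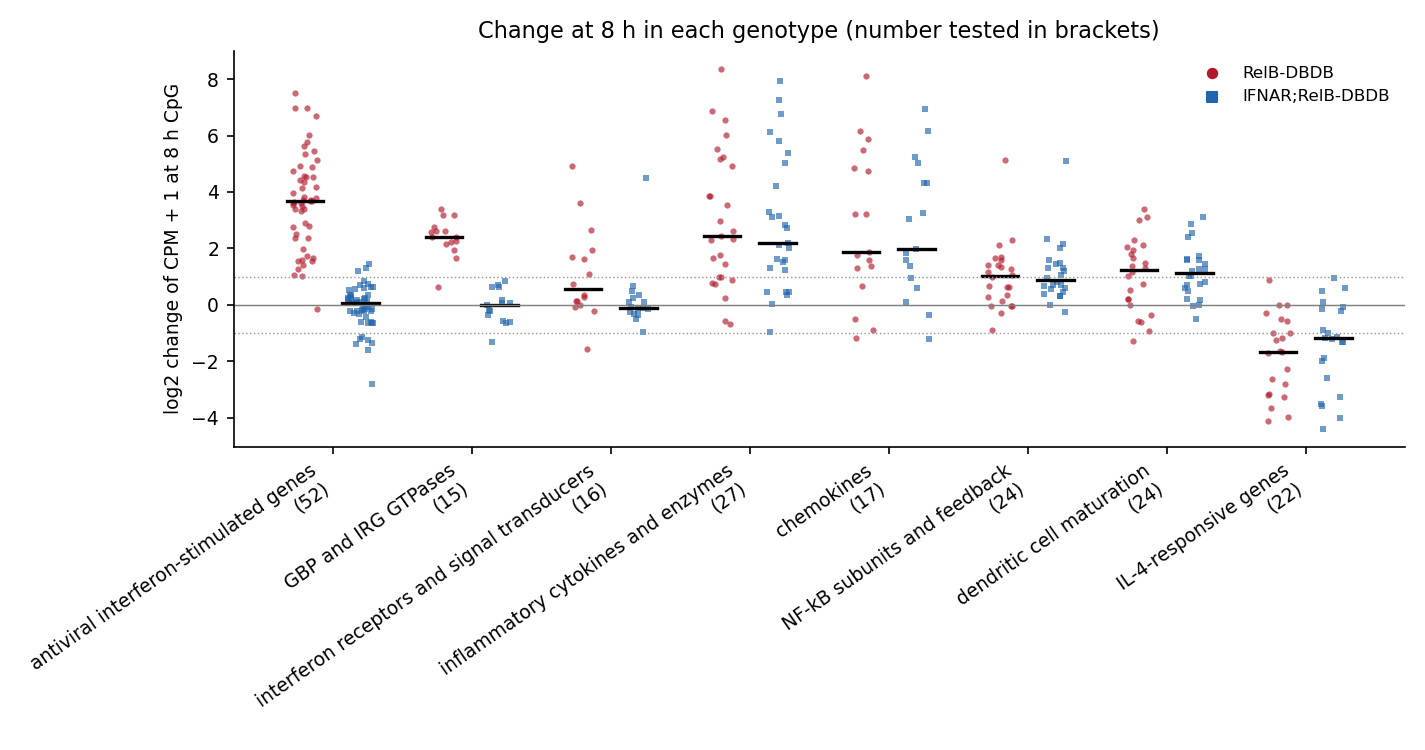
Each point is 1 tested gene, with its log2 change of CPM + 1 at 8 h of CpG against the control of the same genotype (y axis), RelB-DBDB as red circles on the left and IFNAR;RelB-DBDB as blue squares on the right of each list, and black bars mark medians. Antiviral and GTPase medians are 3.68 and 2.40 in RelB-DBDB and 0.06 and -0.01 in IFNAR;RelB-DBDB, while inflammatory medians are 2.45 and 2.19.

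Single genes show where the genotypes part. Cxcl10, a T cell chemokine gene, had a course of 1.33, 6.66, 72.5 and 66.1 CPM with the receptor, in RelB-DBDB, against 5.59, 22.4, 63.4 and 8.89 CPM without it, in IFNAR;RelB-DBDB. It was high at 3 h in both and at 8 h in RelB-DBDB. Ifit1 stood at 7.68, 8.74, 8.19 and 8.35 CPM in IFNAR;RelB-DBDB, Rsad2 at 16.0, 18.6, 13.5 and 5.66 CPM and Irf7 at 7.01, 7.05, 4.37 and 2.42 CPM. In none of these 3 was a CpG sample of IFNAR;RelB-DBDB much above its control, and Rsad2 and Irf7 were lowest at 8 h. Socs3, whose RelB-DBDB values are given above, was high in both, with 7.85, 184, 189.9 and 199 CPM in IFNAR;RelB-DBDB. Il1b stood at 7.76, 79.1, 843 and 955 CPM in IFNAR;RelB-DBDB, above RelB-DBDB at every time, and Cxcl5 at 0.167, 0.255, 3.10 and 42.6 CPM, below RelB-DBDB at 1, 3 and 8 h. Ifnar1 was read in both genotypes, with 86.3, 102, 56.1 and 68.2 CPM in IFNAR;RelB-DBDB.

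The difference in late course was tested with limma as the gap between RelB-DBDB and IFNAR;RelB-DBDB at 3 and 8 h minus the same gap earlier, in control cells and at 1 h (2 residual degrees of freedom). No gene passed after adjustment (0 of 12297), 874 genes (7.11%) had an unadjusted p under 0.05, and limma-voom called 0 as well (964 unadjusted). Of the 52 antiviral genes, 48 had an unadjusted p under 0.05, all of them higher in RelB-DBDB, with a median difference of 2.43 over the list. Without Ifit3 and Ifi44, which passed the filter on low values through the 3 and 8 h RelB-DBDB libraries only, these were 46 of 50 and 2.36. The difference was 5.76 ± 0.73 (SE, unadjusted p = 0.00012, adjusted p = 0.310) for Ifit1, 2.55 ± 0.44 (SE, unadjusted p = 0.0008, adjusted p = 0.376) for Stat2 and 3.80 ± 0.57 (SE, unadjusted p = 0.00034, adjusted p = 0.310) for Usp18. In control cells the antiviral genes lay close together in the 2 genotypes (median log2 difference -0.08, with 27 of 52 lower in RelB-DBDB). Of GTPase genes 11 of 15 had an unadjusted p under 0.05, all higher. However, all 15 were lower in the RelB-DBDB control (median log2 difference -1.75), and that gap enters the difference tested. The list's summed CPM was 604 in the RelB-DBDB control and 3830 at 8 h, against 2318 and 2963 in IFNAR;RelB-DBDB. At the same unadjusted p 6 of 27 inflammatory genes were higher and 2 lower, and 1 of 22 IL-4-responsive genes was higher. Without the inflammatory gene that passed the filter through the 3 and 8 h RelB-DBDB libraries only, 6 of 26 were higher.

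With 1 library left out, which leaves 1 residual degree of freedom, limma called 69 genes in this contrast on leaving out the RelB-DBDB control and 70 for the IFNAR;RelB-DBDB one. It called 71 on leaving out RelB-DBDB at 1 h and 72 for IFNAR;RelB-DBDB at 1 h, 701 and 688 for their 8 h libraries, and 5641 and 5632 for their 3 h libraries. Ifit1, Rsad2, Irf7, Isg15, Mx1, Oasl1, Usp18, Stat2, Iigp1 and Cxcl10 passed in all 8 of these fits, and Tnf, Nfkbia, Cxcl2, Klf4 and Clec10a in 0. In this model the remaining library of the left-out condition is fitted exactly. Leaving out either library of a condition therefore gives the same differences, and the 8 fits come in pairs and are not 8 separate checks. With 1 residual degree of freedom the counts swing widely and do not measure how many genes differ. The count of 0 in the full fit does not show that no gene differs, and a lone library at a time is assumed to vary like the others.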

How the data were processed

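RNA from bone marrow-derived dendritic cells was made into stranded mRNA libraries and read as single ends on an Illumina sequencer, per the labels' protocols. The submitters' processing notes name cutadapt, edgeR and the build mm10, with no version, and for the aligner and counter nothing is given in the sources used. The deposited signal values are CPM plus 1 for each gene name, as the authors made them: after subtraction of 1, each value came out as a whole number of reads within 0.01 read. The table's other 16 sample columns were not used. Rows without a gene name (2161 of 27178, with 0.0737% to 0.131% of reads) stayed out of the tests.

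Log2(CPM + 1) was compared between single libraries and called at 2-fold, and limma 3.58.1 (R 4.3.3, empirical Bayes with a trend) was fitted to the tested genes of all 8 libraries, which were grouped by the labels. The other tools were Python 3.11.15, numpy 2.4.6, pandas 2.3.3, scipy 1.17.1 and matplotlib 3.10.9. On simulated data limma recovered 100% of 80 genes changed by a log2 of 2 at 8 h, with 8 false calls among 12297. The simulation assumed a spread, gave both genotypes the same change at 8 h and counted changed genes of at least 5 CPM only. It recovered 100% for the late genotype difference too, where the data gave 0 calls. It therefore checks that the code runs and does not show how much limma can find in these data. Intervals of ratios are exact Poisson intervals at 95%. Median-ratio and TMM scaling, a pseudocount of 5 CPM, other filters, thinning to 6159951 reads, limma-voom and leaving out each library were tried. Promoters came from RefSeq on GRCm38.p6 (9147 of 12288 tested names found on 1 row of the table matched), and gene positions from GENCODE on the same build.

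The genes and lists were chosen with earlier results of these data known. Named by rule were a fixed set of signalling and response genes (1 of them is not reported here), the 8 largest increases and 6 largest decreases at each time, the 6 genes of highest CPM in each group by first time, and in each list the 4 members of largest change at 8 h and those 2-fold changed at 1 h. Further list members were named for their role after their values were seen.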

Additional observations from a re-analysis of the deposited data

Results flagged for a closer look

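In 4 named genes the 8 h sample lay at least 2-fold above its control in RelB-DBDB and at least 2-fold below its control in IFNAR;RelB-DBDB. With 1 library each, this difference at 8 h was not tested. Rsad2, the viperin gene, had a log2 change of 6.68 in RelB-DBDB and -1.35 in IFNAR;RelB-DBDB, a difference of 8.04. Irf7 had a log2 change of 4.9 in RelB-DBDB and -1.23 in IFNAR;RelB-DBDB, a difference of 6.13. Iigp1, an interferon-inducible GTPase gene, had a log2 change of 3.18 in RelB-DBDB and -1.3 in IFNAR;RelB-DBDB, a difference of 4.48. Fcgr1, which encodes the high-affinity receptor for IgG, had a log2 change of 1.03 in RelB-DBDB and -2.23 in IFNAR;RelB-DBDB, a difference of 3.26, from 12.1 CPM at 8 h and 5.42 CPM in control cells of RelB-DBDB, and 1.35 CPM at 8 h and 10.0 CPM in control cells of IFNAR;RelB-DBDB. With a pseudocount of 5 CPM the log2 change of Fcgr1 in RelB-DBDB was 0.72, less than 2-fold. The IFNAR;RelB-DBDB values of Rsad2 and Irf7 at 8 h were also low, so whether their falls pass 2-fold depends on the pseudocount. The 8 h IFNAR;RelB-DBDB library is the shallowest, with 3711818 reads. No group had enough samples for a check of single samples that stand apart.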

How the results depend on the processing

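No paired analysis was possible because the labels give no replicate numbers. The limma model of the mean CpG change has genotype as a term, so that it compares conditions within each genotype. The planned count test was not run, since the deposited values are CPM plus 1 and not counts. Limma-voom and the other settings for the groups by first time and for promoter motifs were chosen after seeing the data. The balance of 2-fold higher to lower genes turned round with median-ratio and TMM scaling, at 3 h to 654 higher and 420 lower and to 605 and 473 (524 and 604 as reported), and at 8 h as follows. By limma it turned round at 3 h to 591 and 371 and to 540 and 442 (448 and 476), and at 8 h to 1227 and 1107 with median-ratio scaling, against 1126 and 1192 with TMM scaling (801 and 1853). With median-ratio and TMM scaling the genes 2-fold higher at 8 h were 1538 and 1551 (848 as reported), those lower were 1252 and 1259 (2410), and those first higher at 8 h were 1026 and 1067 (468). With a pseudocount of 5 CPM 21 genes were higher at 1 h (36, likewise for the 1 h group), 0 were lower at 1 h (16), 267 were lower at 3 h (604) and 1371 at 8 h (2410), and the ISRE share of the 1 h group was 0% (4.17%). Among genes with a mean of at least 5 CPM 2 were lower at 1 h. Without a filter limma called 478 genes at 3 h (924) and 1629 at 8 h (2654), and limma-voom called 4316 at 8 h. With 1 library left out limma called 5 to 35 genes at 1 h, 12 to 4313 at 3 h, 336 to 7056 at 8 h and 69 to 5641 in the late genotype difference (0 in the full fit, with 874 at an unadjusted p under 0.05, and 0 by limma-voom). The cause of these moves was not tested, beyond the smaller number of genes or libraries in some. List medians moved by less than the limit set for them in 80 of 84 cases with median-ratio scaling, 81 with TMM scaling and 80 with a pseudocount of 5 CPM. Single genes did so in 797, 869 and 1164 of 1332 cases. Among RelB-DBDB libraries depth limits genes near 0 most at 1 h, where 3 reads are 0.487 CPM.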

Other observations

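Of 17 glycolysis genes 10 were 2-fold lower at 8 h in RelB-DBDB and 2 higher, beside 19.6% and 6.9% of all genes, with a median log2 change of -1.18. With median-ratio scaling 6 were lower and 3 higher, beside 10.2% and 12.5% of all genes, with a median of -0.77. Eno1, the enolase gene, had a course of 621, 642, 459 and 77.4 CPM in RelB-DBDB cells, against 553, 583, 476 and 279 CPM in IFNAR;RelB-DBDB cells. The entry enzyme gene Hk2 was the opposite, at 80.0, 85.2, 155 and 185 CPM in RelB-DBDB, as was Hif1a, the gene of a regulator of the pathway, at 259, 273, 403 and 593 CPM. Of 18 sterol synthesis genes 8 were 2-fold lower at 8 h, beside the 19.6% of all genes, with a median of -0.85, and 4 were with median-ratio scaling, beside the 10.2%, with a median of -0.50. Dhcr7, the gene of a late enzyme of the pathway, stood at 36.5, 38.3, 11.7 and 4.84 CPM. In IFNAR;RelB-DBDB the medians at 8 h were -0.68 for glycolysis and -0.23 for sterol synthesis. Prdx1, which encodes a peroxide-removing enzyme, stood at 485, 417, 1513 and 2359.6 CPM and rose over both genotypes at 8 h by limma (log2 2.25, adjusted p = 0.00036).

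Some features were far lower in the 8 h RelB-DBDB library than in any other. Lars2, which encodes a mitochondrial tRNA ligase, had a course of 698, 623, 361 and 33.1 CPM in RelB-DBDB cells, against 529.9, 114, 501 and 267 CPM in IFNAR;RelB-DBDB cells. Yam1 had 16774, 17445, 7146 and 661 CPM in RelB-DBDB cells, against 14085, 1881, 17486 and 4056 CPM in IFNAR;RelB-DBDB cells. In both the 1 h sample was the lowest of IFNAR;RelB-DBDB. The same 8 h RelB-DBDB library had the highest share of mitochondrial reads, and the median log2 change of 9 mitochondrially encoded genes was 1.76 there and 0.15 in IFNAR;RelB-DBDB at 8 h.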
